A study of Bos taurus with 12 samples.

Results

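A set of 10 genes of the unfolded protein response and of protein folding in the endoplasmic reticulum (ER) were chosen by name, and 9 of the 10 had a probe named for them on the array: the transcription factors ATF4, DDIT3 and XBP1, the amino acid enzyme ASNS, and the ER folding proteins PDIA3, PDIA4, PDIA6, CALR and CANX. HERPUD1 was not analysed here. The 9 genes stand among 6745 genes with a symbol. Where a gene had several probes, the brightest was used, and this choice of probe did not depend on any difference between groups. The genes themselves were chosen with earlier results of these data known.

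Uterine lining (endometrium) of Japanese-Black cows was biopsied at day 15 of the cycle. Samples came from summer (early September) and autumn (mid-November) of consecutive years, and from both uterine horns: the horn next to the ovary with the corpus luteum (CL side) and the opposite horn (non-CL side). This gave 12 single-colour arrays in 4 groups of 3: CL-side summer, CL-side autumn, non-CL-side summer and non-CL-side autumn. All groups shared the breed, the tissue and the cycle day, and the labels give neither the animals' age nor the year of each sample. The study asked how the endometrium differs between the seasons. Because the labels do not say that the replicates of a group came from separate cows, p-values here describe the spread among these samples, which may be technical.

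The unfolded protein response is the programme by which a cell adjusts its ER when unfolded proteins accumulate there. A branch that starts at the kinase EIF2AK3 (PERK) slows translation while favouring that of ATF4, which in turn drives DDIT3 (CHOP) and amino acid genes such as ASNS. Another branch starts at ERN1 (IRE1), which splices XBP1 mRNA so that it encodes an active factor, and XBP1 with ATF6 raises chaperones and enzymes of folding. Endometrial epithelium secretes large amounts of protein into the uterine lumen in the luteal phase, and that protein passes through the ER. The arrays measured mRNA abundance. They did not measure ATF4 translation, XBP1 splicing or phosphorylation of EIF2S1.

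Each probe on this array is a 60-base oligonucleotide, and its stretch of target decides which transcripts a value can report. The last 30 bases of 8 of the probes, as the scanner files print them, are shown to let a reader place each measurement on its transcript. Capitals mark the letters AATAAA or ATTAAA, the usual polyadenylation signals near the end of an mRNA, searched on the printed strand alone.
ATF4: cgcttgtatatagaaggctgaagctgtgtt
XBP1: aactacctgtgcaATTAAAaagtacaatgc
ASNS: tgaaaaAATAAAagtcttaaatccgaaaaa
PDIA3: ggttttgggaaaattatttgtgttgagggg
PDIA4: gtcttctgaggaattgttagctgaagatgg
PDIA6: tgcttggatgttcttggaggctgtttctta
CALR: tgctgagaatgtaagaactacaaacaaaat
CANX: attttactgataagaaaacacatctttaca
Of these 8, only the XBP1 and ASNS probes hold such letters in the bases shown, as do 12% of the 15208 probes on the array. The match is a description of the probe, not of a used signal. No array assembly was given in the sources used here, so no coordinates are stated. The ATF4, DDIT3 and PDIA4 probes were named from the array's description text, PDIA3 and CALR by RefSeq accession, ASNS and PDIA6 by gene ID, and XBP1 and CANX by symbol.

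Array brightness was similar on 11 of the 12 arrays, whose 75th percentile of the processed signal lay between 3516 and 4418. On CL-side summer replicate 2 it was 2007. Scores for marker genes also put that array apart. Its epithelial score was 1.28 (the other 11 arrays −0.53 to 0.19) and its stromal score −1.41 (−0.44 to 0.76), each score being the mean log2 difference of the list's genes from their own 12-array means. It was also above the other 11 arrays for T and NK cells (0.91, their highest 0.27) and plasma and B cells (0.92, 0.39). The same held for macrophages and granulocytes (1.29, 0.88), endothelium (0.52, 0.23) and erythrocytes (0.27, 0.23). Its smooth muscle score of 2.09 lay within their range (−1.65 to 2.35). Of the markers with a probe, 12 of 15 epithelial and 9 of 11 stromal genes, none was below background on every array, so both cell classes of the labelled tissue were detected. Results are therefore given with and without this array where it moves them. In such bulk biopsies fewer cells of a type and less RNA per cell cannot be told apart. Slide 1 held all 6 summer arrays and autumn replicate 1 of both sides, and slide 2 held the other 4 autumn arrays. Season values of the set are therefore also given with the slide as a block where that moves them. No summer array was on slide 2, so that fit takes the slide difference from the autumn arrays alone. Its season values therefore rest heavily on the autumn arrays numbered 1, the only autumn arrays of slide 1.

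No gene of the set differed between groups in any of 6 comparisons at an adjusted p of 0.05 (limma, Benjamini-Hochberg over all kept probes). Levels are on a log2 scale relative to each array's 75th percentile, and differences are differences of these levels. On every one of the 12 arrays the 9 probes exceeded background by the scanner's own criterion, and none was saturated. The same test called 0 of 12381 probes (0%) for season on the CL side, 0 of 12383 (0%) for season on the non-CL side, and 0 of 12391 (0%) for season over both sides. It called 0 of 12389 (0%) between the sides in summer, 0 of 12378 (0%) between them in autumn, and 0 of 12375 (0%) for the interaction of season and side. At an unadjusted p under 0.05 the respective shares of all probes were 9.92%, 1.12%, 4.02%, 1.41%, 1.86% and 1.88%, and no gene of the set was among them. On the CL side no gene of the set had seasons that did not overlap, beside 13.2% of all probes, and in autumn none had sides that did not, beside 8.03%. A missed threshold does not show that a gene was equal in the groups, so the intervals of the differences are given below.

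**Figure D1:**
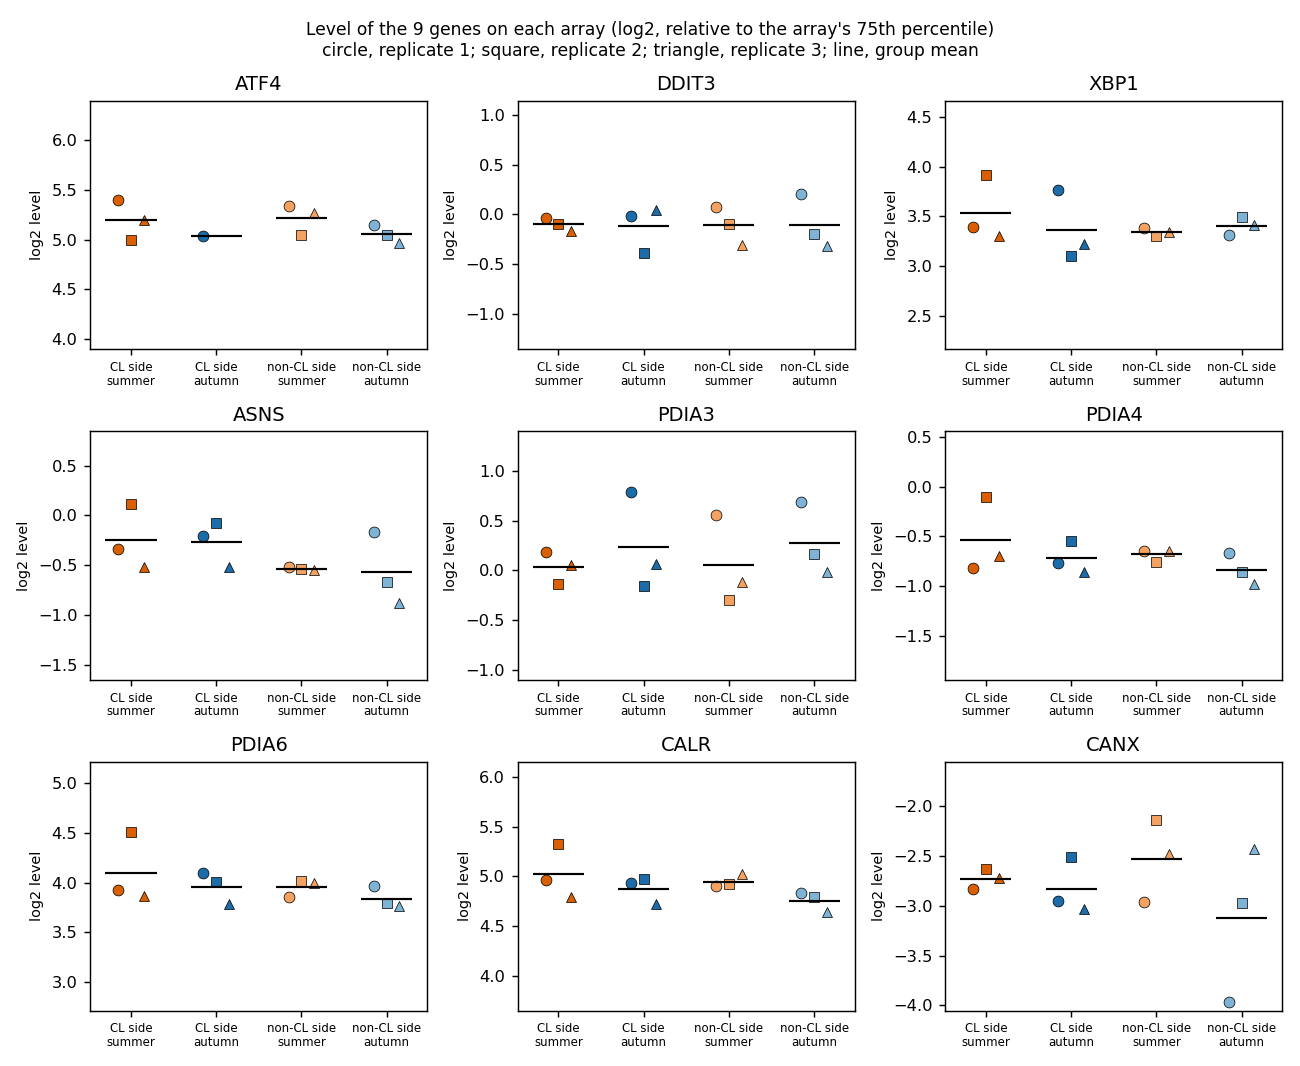
Log2 level (y axis, relative to the 75th percentile of the array) of the 9 genes in the 4 groups (x axis); symbols are the 3 arrays of a group by replicate number, lines are group means, and every panel spans the same 2.5 log2 units. CL-side summer replicate 2 (dark orange square) is the highest point for XBP1, ASNS, PDIA4, PDIA6 and CALR, and 2 CL-side autumn points are missing for ATF4.

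ATF4, the transcription factor of the integrated stress response, varied little. It read 5.40, 4.998 and 5.20 in CL-side summer replicates 1 to 3 and 5.34, 5.05 and 5.27 in non-CL-side summer. In autumn it read 5.15, 5.05 and 4.97 on the non-CL side and 5.04 on the single CL-side array that kept a value, since the spots of replicates 2 and 3 were flagged as outliers and set to missing. The groups overlapped, and the whole range over 10 arrays was 0.43. The summer minus autumn difference was 0.16 ± 0.22 (SE, 3 arrays against 1; 95% interval −0.35 to 0.67) on the CL side and 0.16 ± 0.16 (SE, n = 3 and 3; −0.20 to 0.52) on the non-CL side, with limma adjusted p = 0.802 and 1.0. The CL-side error takes its spread from the other groups and assumes that the single autumn array varies as they do. Read with their flags ignored, the missing CL-side autumn spots were 4.95 and 5.03, beside 4.998 to 5.40 in CL-side summer. With the slide as a block the non-CL difference was 0.070.

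DDIT3, the pro-apoptotic factor downstream of ATF4, showed no shift in any group mean. It read −0.04, −0.10 and −0.17 in CL-side summer, −0.02, −0.39 and 0.04 in CL-side autumn, 0.07, −0.10 and −0.31 in non-CL-side summer, and 0.21, −0.20 and −0.32 in non-CL-side autumn. The 4 group means lay within 0.020 of each other, against a within-group SD of up to 0.28. The season difference was 0.02 ± 0.18 (SE) on the CL side, with a 95% interval of −0.38 to 0.42, and −0.0065 ± 0.18 on the non-CL side (−0.41 to 0.40). These became −0.19 and −0.21 with the slide as a block.

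XBP1, the factor that raises ER chaperones and secretory capacity, read 3.39, 3.91 and 3.30 in CL-side summer and 3.76, 3.11 and 3.22 in CL-side autumn. On the non-CL side it read 3.39, 3.30 and 3.34 in summer and 3.31, 3.49 and 3.42 in autumn. The arrays of the CL side spread more widely, with SDs of 0.33 and 0.35 against 0.045 and 0.091 (n = 3 each), and all groups overlapped. Summer minus autumn was 0.17 ± 0.21 (SE; 95% interval −0.28 to 0.63) on the CL side and −0.065 ± 0.21 (−0.52 to 0.39) on the non-CL side. Without CL-side summer replicate 2 the CL-side difference was −0.018, and with the slide as a block it was 0.019 (−0.22 on the non-CL side).

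ASNS, which makes asparagine and is a standard ATF4 target, had the highest group mean in CL-side summer (−0.25) and the lowest in non-CL-side autumn (−0.57). It read −0.34, 0.12 and −0.52 in CL-side summer and −0.52, −0.54 and −0.55 in non-CL-side summer. These groups did not overlap, but their nearest arrays both read −0.52 after rounding, and the CL-side SD was 0.33. Over all probes, 3.71% had groups that did not overlap in this comparison. In autumn it read −0.20, −0.07 and −0.52 on the CL side and −0.16, −0.67 and −0.88 on the non-CL side, which overlap. CL minus non-CL was 0.29 ± 0.22 (SE; 95% interval −0.20 to 0.78) in summer and 0.31 ± 0.22 (−0.18 to 0.80) in autumn, with limma adjusted p = 0.984 and 1.0. The summer value was 0.11 without CL-side summer replicate 2, and the autumn value ran from 0.15 without non-CL-side autumn replicate 3 to 0.51 without non-CL-side autumn replicate 1. Between seasons ASNS differed by 0.018 ± 0.22 on the CL side and 0.033 ± 0.22 on the non-CL side, which became −0.22 and −0.20 with the slide as a block.

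Of the folding proteins, CALR (calreticulin), a soluble lectin chaperone that holds new glycoproteins and binds calcium, was the only one with a pair of seasonal groups that did not overlap. On the non-CL side it read 4.90, 4.92 and 5.02 in summer and 4.83, 4.79 and 4.64 in autumn, so that all summer arrays were above all autumn arrays. For 6.26% of all probes the groups did not overlap in this comparison. The difference was 0.19 ± 0.16 (SE, n = 3 and 3; 95% interval −0.15 to 0.54; limma adjusted p = 1.0), and 0.13 with the slide as a block. On the CL side CALR read 4.97, 5.33 and 4.80 in summer and 4.93, 4.97 and 4.72 in autumn, which overlap. The difference there was 0.16 ± 0.16 (−0.19 to 0.50) and was 0.0067 without CL-side summer replicate 2 and 0.089 with the slide as a block.

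CANX (calnexin), the membrane-bound partner of CALR in the same glycoprotein cycle, was the most variable gene of the set. It read −2.96, −2.14 and −2.48 in non-CL-side summer and −3.97, −2.98 and −2.43 in non-CL-side autumn. On the CL side it read −2.83, −2.63 and −2.72 in summer and −2.96, −2.51 and −3.03 in autumn. The groups overlapped, and the lowest array, non-CL-side autumn replicate 1, lay far below the rest. Summer minus autumn was 0.60 ± 0.35 (SE; 95% interval −0.17 to 1.38; limma adjusted p = 1.0) on the non-CL side, the largest difference of any of the 9 genes in the 4 comparisons between groups, and 0.11 ± 0.35 (−0.67 to 0.88) on the CL side. Leaving out non-CL-side autumn replicate 1 brought the non-CL difference to 0.18. With the slide as a block it was 1.09 (limma adjusted p = 0.830, past 0.05 only before adjustment), and on slide 1 alone, where that array is the sole non-CL autumn sample, it was 1.45, a value with no spread of its own on the autumn side. The CL-side difference with the slide as a block was 0.59 (adjusted p = 0.555).

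PDIA3 (ERp57), the disulfide isomerase that works with CALR and CANX, was the only folding gene whose group means were lower in summer on both sides. It read 0.18, −0.14 and 0.05 in CL-side summer and 0.79, −0.16 and 0.06 in CL-side autumn. On the non-CL side it read 0.56, −0.29 and −0.12 in summer and 0.69, 0.17 and −0.02 in autumn. In each group replicate 1 was the highest array, and the 4 arrays numbered 1 (0.18 to 0.79) lay above the 8 others (−0.29 to 0.17). Summer minus autumn was −0.20 ± 0.30 (SE; 95% interval −0.86 to 0.46; limma adjusted p = 0.814) on the CL side and −0.23 ± 0.30 (−0.89 to 0.43; adjusted p = 1.0) on the non-CL side. Among the autumn arrays, PDIA3 averaged 0.74 on slide 1 (n = 2) and 0.015 on slide 2 (n = 4), and CANX averaged −3.46 and −2.74. With the slide as a block the PDIA3 differences became −0.68 and −0.71 (limma adjusted p = 0.439 and 0.912, both past 0.05 only before adjustment). On slide 1 alone, with 1 autumn array a side, they were −0.75 and −0.64. Without CL-side autumn replicate 1 the CL-side difference was 0.079, the opposite sign, and without non-CL-side autumn replicate 1 the non-CL difference was −0.026. The autumn arrays of slide 1 are also the autumn arrays numbered 1, so slide and replicate number cannot be told apart within autumn.

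PDIA4 (ERp72) and PDIA6 (P5), disulfide isomerases that are found with the chaperone HSPA5 in ER complexes, were high and low on much the same arrays as CALR. PDIA4 read −0.81, −0.10 and −0.70 in CL-side summer, −0.77, −0.54 and −0.86 in CL-side autumn, −0.64, −0.76 and −0.65 in non-CL-side summer, and −0.67, −0.85 and −0.98 in non-CL-side autumn. All groups overlapped, and CL-side summer replicate 2 was far above the rest. PDIA6 read 3.92, 4.51 and 3.86 in CL-side summer, 4.10, 4.003 and 3.78 in CL-side autumn, 3.86, 4.01 and 3.997 in non-CL-side summer, and 3.97, 3.79 and 3.76 in non-CL-side autumn. Its groups overlapped too, with the same array highest. The summer minus autumn differences were 0.18 ± 0.19 (SE) and 0.15 ± 0.19 for PDIA4 on the CL and non-CL sides. They were 0.14 ± 0.18 and 0.12 ± 0.18 for PDIA6. Without CL-side summer replicate 2 the CL-side values were −0.036 for PDIA4 and −0.069 for PDIA6. With the slide as a block the values on the CL and non-CL sides were 0.12 and 0.093 for PDIA4 and 0.0053 and −0.015 for PDIA6.

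**Figure D2:**
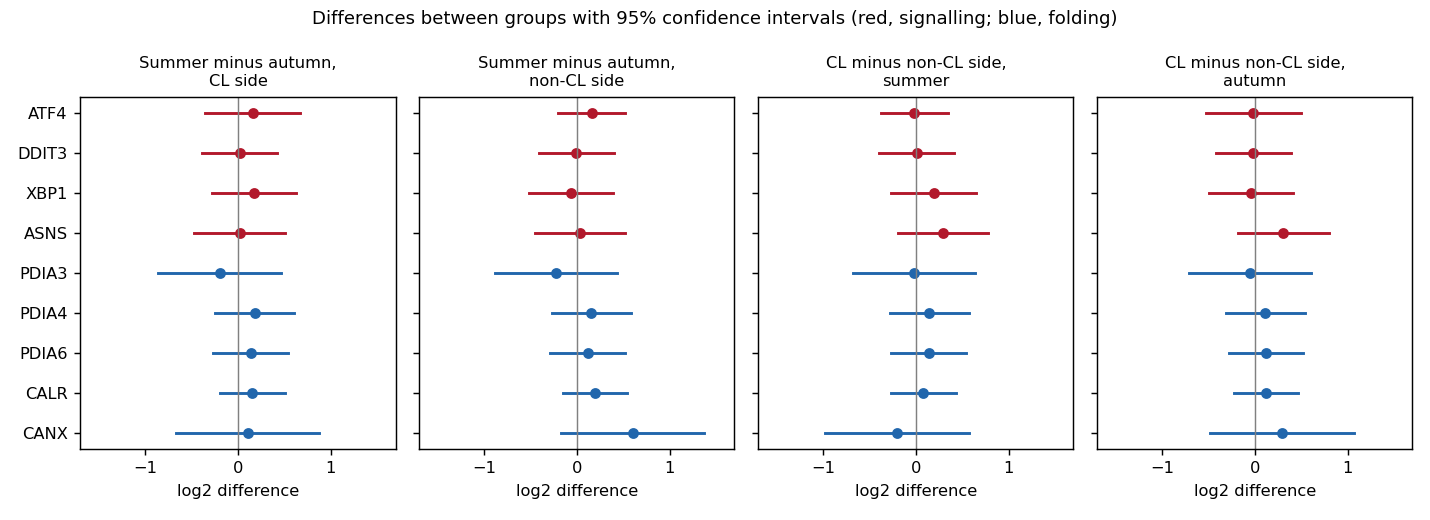
Differences between groups (x axis, log2; summer minus autumn or CL minus non-CL side) for the 4 signalling genes (red) and the 5 folding genes (blue); points are limma estimates and lines 95% confidence intervals. Every interval crosses 0, and the widest are those of CANX, up to 1.38 for its season difference on the non-CL side. The enzyme ASNS, an ATF4 target, is counted with the signalling genes.

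The intervals describe the precision of the differences among these samples in the fit without the slide. Because the replicates may be technical, they do not bound a seasonal difference between cows. For season on the CL side, and likewise for side in summer, all 9 intervals lay within 1 log2 unit of 0, that is within a 2-fold change either way. For season on the non-CL side and for side in autumn 8 of 9 did, the exception in both being CANX, whose upper bounds were folds of 2.59 and 2.09. Over both sides, with same-numbered horns of a season averaged first (3 averages a season), the season differences ran from −0.21 ± 0.26 (SE; PDIA3) to 0.35 ± 0.25 (CANX), and all 9 intervals lay within 1 log2 unit. With the slide as a block these became −0.70 and 0.84, but there the autumn level is the single average of the autumn arrays numbered 1. In the fit without the slide, CANX was 0.18 when non-CL-side autumn replicate 1 was left out. All of these interval counts come from the fit without the slide, and the CL-side interval of ATF4 among them rests on a single autumn array. In the interaction of season and side, the differences ran from −0.50 (CANX) to 0.24 (XBP1), and the smallest unadjusted limma p was 0.338 (adjusted p = 0.999). Leaving out 1 array at a time moved them over −0.84 to −0.074 for CANX and 0.047 to 0.44 for XBP1. Spread within groups was mostly below that of a typical probe. The residual SD of the set had a median of 0.22, against 0.31 over all kept probes, and was smaller than that value for 7 of 9 genes. It was lowest for ATF4 (0.15) and CALR (0.16) and highest for PDIA3 (0.39) and CANX (0.47).

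Signalling and folding genes were then set side by side. The 4 signalling genes were the factors ATF4, DDIT3 and XBP1 and the ATF4 target ASNS, which is itself an enzyme. On the CL side 4 of 5 folding genes and 4 of 4 signalling genes had a higher mean in summer, with medians of 0.14 and 0.089, while 53% of all probes did, with a median of 0.023. The counts without CL-side summer replicate 2 were 2 of 5 and 2 of 4 (medians −0.036 and 0.00038), and with the slide as a block 4 of 5 and 2 of 4 (0.089 and −0.084). On the non-CL side 4 of 5 folding genes (median 0.15) and 2 of 4 signalling genes (median 0.014) were above 0, beside 49.9% of all probes (median −8.2e-05), and with the slide as a block 3 of 5 and 1 of 4 were (medians 0.093 and −0.21). Between the sides in summer, 3 of 5 folding and 3 of 4 signalling genes were higher on the CL side, beside 48.9% of all probes, and without CL-side summer replicate 2 it was 1 of 5 and 4 of 4. In autumn 4 of 5 folding and 1 of 4 signalling genes were, beside 42.6%. These are directions of estimates that did not pass the test. The comparisons share arrays with one another, so their directions are not separate evidence.

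A folding score and a signalling score were formed for each array as the mean log2 difference of the genes from their own means. ATF4 was missing on CL-side autumn replicates 2 and 3, so the signalling score there averages the remaining genes. Folding minus signalling averaged −0.011 ± 0.092 (SD, n = 3) in CL-side summer, −0.0011 ± 0.13 in CL-side autumn, 0.080 ± 0.085 in non-CL-side summer and −0.057 ± 0.18 in non-CL-side autumn. Leaving out 1 array at a time moved these means over −0.043 to 0.029, −0.057 to 0.046, 0.057 to 0.13 and −0.13 to 0.017 in the same order, so that the sign turned in all groups but non-CL-side summer. The ranges of the 4 groups overlapped, and the spread within a group was as large as the spread between the means. With ATF4, DDIT3 and XBP1 alone as the signalling genes the means were 0.014, 0.065, 0.046 and −0.091 in the same order. With ATF4 left out of the signalling score on every array they were −0.022, −0.028, 0.11 and −0.065. The folding score itself separated the seasons on the non-CL side, at 0.041, 0.046 and 0.053 in summer and −0.13, −0.12 and −0.11 in autumn. PDIA3 and CANX deviated in opposite directions on all 6 of these arrays. Without PDIA3 the same arrays ranged from −0.052 to 0.17 in summer and from −0.30 to −0.093 in autumn. The separation depended on CANX, which read −3.97 on non-CL-side autumn replicate 1, while PDIA3 read 0.69 there. No score without CANX is given. Of single probes, 6.26% had seasons that did not overlap on the non-CL side. On the CL side the folding score overlapped, at −0.019, 0.29 and −0.046 in summer and 0.12, 0.050 and −0.17 in autumn.

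**Figure D3:**
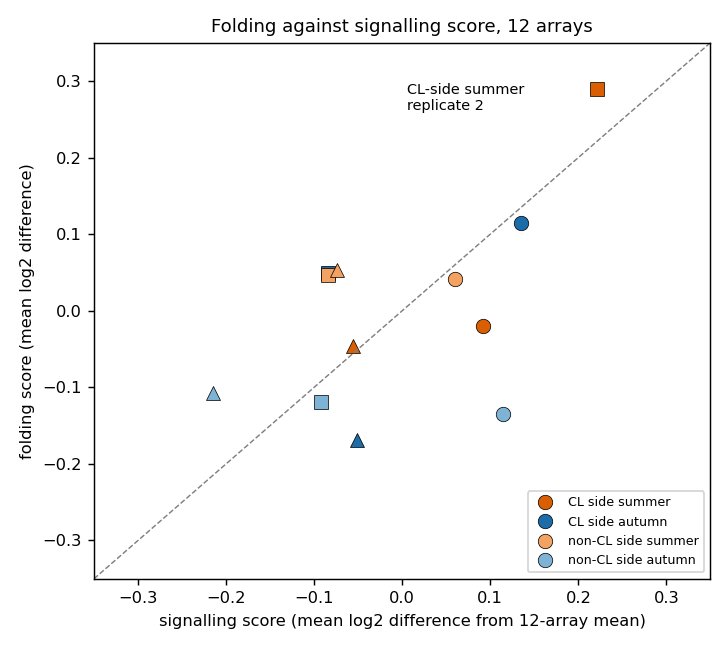
Folding score (y axis) against signalling score (x axis) of the 12 arrays, both as mean log2 differences from the 12-array mean, coloured by group, with replicate 1 as circles, 2 as squares and 3 as triangles; the dashed line marks equal scores. CL-side summer replicate 2 is highest on both axes, at 0.29 and 0.22, and the 3 non-CL summer arrays lie above the 3 non-CL autumn arrays on the folding axis only.

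Over the 12 arrays the scores correlated at Pearson's r = 0.56 and Spearman's rho = 0.31, given as a description. Without CL-side summer replicate 2 these fell to r = 0.27 and rho = 0.11. That array had the highest value of the 12 for XBP1, ASNS, PDIA4, PDIA6 and CALR, which is 5 of 9 genes, and also for 30.3% of the 12272 probes measured on all arrays. The excess over the median of the other arrays ran from 0.42 (CALR) to 0.65 (PDIA4). ATF4, DDIT3, PDIA3 and CANX lay within the range of the other arrays there. The part of this array's high epithelial, immune and endothelial scores, low stromal score and low brightness in these values was not tested.

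Within the folding genes, PDIA4, PDIA6 and CALR varied together over the arrays, while PDIA3 and CANX varied in opposite directions. As descriptions over 12 arrays, r was 0.92 for PDIA6 with CALR, 0.89 for PDIA4 with CALR and 0.89 for PDIA4 with PDIA6. Without CL-side summer replicate 2 they were 0.79, 0.71 and 0.59. PDIA3 with CANX gave −0.77 with and without it. Among the pairs of signalling genes r ran from −0.47 (ATF4 with XBP1, 10 arrays) to 0.35 (XBP1 with ASNS), and ATF4 with ASNS, its target, gave −0.011 over 10 arrays. When CL-side summer replicate 2 was left out, the ATF4 and ASNS pair gave 0.32 over 9 arrays and XBP1 with ASNS −0.10, so the signs of both rest on that array. ASNS ran with PDIA6 (r = 0.80), PDIA4 (0.79) and CALR (0.75), and at 0.70, 0.67 and 0.57 without that array. DDIT3 ran with PDIA3 (0.68) and against CANX (−0.73). All of these values share the same libraries and scaling.

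The genes most like both scores were sought among 5746 genes with a symbol. For the folding score they were HM13 (r = 0.88), a signal peptide peptidase of the ER membrane, TBC1D1 (0.88), CH25H (0.88), ANXA2 (0.86) and TMEM219 (0.86). Without CL-side summer replicate 2 these r values ranged from 0.69 for TMEM219 to 0.81 for ANXA2. For the signalling score they were PFDN6 (r = 0.91), a subunit of the prefoldin chaperone of the cytosol, CMPK1 (0.88), SLC25A32 (0.88), PTGER1 (0.87), a prostaglandin E receptor, and PRLR (0.87), the prolactin receptor, with 0.80 to 0.87 in the other 11 arrays. The highest of so many correlations are large by selection, and they carry no test.

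The rest of the pathway was read from 5 lists of 124 genes, of which 78 had a probe. None passed an adjusted p of 0.05 in any comparison (limma). For season on the CL side 3 of 75 tested genes were higher and 8 lower at an unadjusted p under 0.05, which is 14.7% beside 9.92% of all probes. On the non-CL side there were 0 of 77, beside 1.12%. The median differences were −0.012 and −0.015. Some marker scores also differed between the seasons on the CL side, where 13.2% of all probes had seasons that did not overlap. The score of 7 macrophage and granulocyte genes was 0.88 to 1.29 in summer and −0.66 to 0.24 in autumn. That of 11 T and NK cell genes was 0.13 to 0.91 and −0.20 to −0.17, and that of 12 epithelial genes −0.090 to 1.28 and −0.28 to −0.20. The score of 3 plasma and B cell genes overlapped, at 0.039 to 0.92 and −0.38 to 0.29. The part of these scores in the CL-side values was not tested. Among UPR sensors and stress transducers, 1 of 11 was past an unadjusted p of 0.05 on the CL side, beside 9.92% of all probes. It was CREB3L3, named after its value was seen. Its difference was 0.86 ± 0.36 (SE), 0.59 without CL-side summer replicate 2 and −0.13, the opposite sign, in the authors' deposited log2 values. With the slide as a block it was 1.42. EIF2AK3, the PERK kinase, lay between 0.93 and 1.14 on all 12 arrays and differed by −0.039 ± 0.12 (SE) and −0.034 ± 0.12 between seasons on the CL and non-CL sides. ERN1 and ATF6 were not analysed here.

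Of the ATF4 and DDIT3 targets, ATF3 stood out in size. It is a stress factor induced by ATF4 and also an immediate early gene that responds to many stimuli. It read −0.92, 3.29 and 1.92 in CL-side summer, −1.31, −1.21 and −2.20 in CL-side autumn, −2.44, 1.09 and 2.03 in non-CL-side summer, and −1.38, −2.59 and −0.72 in non-CL-side autumn. All CL-side summer arrays were above all CL-side autumn arrays, while the non-CL groups overlapped. Of all probes, 13.2% had seasons that did not overlap on the CL side. Summer minus autumn was 3.01 ± 1.21 (SE; limma adjusted p = 0.496, past 0.05 only before adjustment) on the CL side and 1.79 ± 1.21 (adjusted p = 1.0) on the non-CL side. Leaving out 1 array at a time gave 2.07 to 4.18 on the CL side and 0.88 to 3.12 on the non-CL side. The 2.07 was the value without CL-side summer replicate 2, and it was not past 0.05 before adjustment. With the slide as a block the ATF3 values were 2.78 and 1.56, neither past 0.05 before adjustment. The score of 14 immediate early genes, ATF3 among them, varied on the same arrays, from −0.43 to 1.65 in CL-side summer and −1.34 to 1.54 in non-CL-side summer. It ran from −0.9996 to −0.14 and −1.12 to 0.10 in autumn on the CL and non-CL sides. The part of the immediate early genes in the ATF3 values was not tested. Over the same arrays ATF3 ran from −2.59 to 3.29, while ATF4 covered a range of 0.43 and DDIT3 one of 0.59. TRIB3, another target and an inhibitor of AKT signalling, differed by 0.36 ± 0.59 and 0.99 ± 0.59 on the CL and non-CL sides, and its highest array was non-CL summer replicate 2 at −1.82. Without that array the non-CL difference was 0.23, and with the slide as a block the values were −0.10 and 0.53. The mitochondrial folate enzyme MTHFD2 (−0.82 ± 0.36, SE) and the proline enzyme PYCR1 (−0.65 ± 0.23) were past an unadjusted p of 0.05 on the CL side with lower means in summer, and are named for that reason. The MTHFD2 value was −0.43 with the slide as a block, −0.41 in the authors' deposited log2 values and −0.57 without CL-side summer replicate 2. None of these was past 0.05 before adjustment. For PYCR1 they were −0.97, −0.64 and −0.72, all past 0.05 before adjustment. On the non-CL side MTHFD2 differed by 0.50, the opposite sign, and PYCR1 by −0.31, neither past that level.

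**Figure D4:**
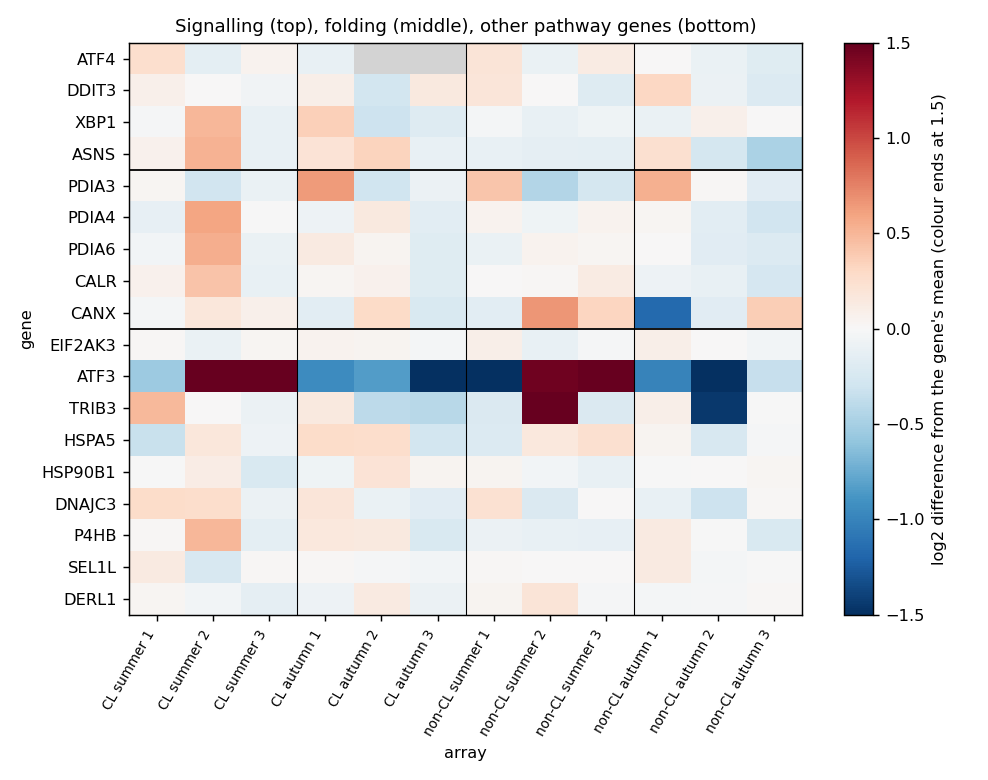
Log2 difference of each gene (y axis) from its own mean on each array (x axis, 4 groups of 3) for the 4 signalling genes, the 5 folding genes and 9 further pathway genes; grey marks missing ATF4 values and the colour scale ends at 1.5. ATF3 reaches the end of the scale in summer and in autumn, while most other genes stay pale, apart from CL-side summer replicate 2 and single arrays of PDIA3, CANX and TRIB3.

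In the wider list of ER chaperones and folding enzymes most differences were below 0 on the CL side. Of 21 tested genes 14 were lower in summer and 7 higher, with a median of −0.17 beside 0.023 over all probes, and 5 were lower at an unadjusted p under 0.05 with none higher. Over all probes 3.55% were lower at that level, and 53% had a difference above 0. The 5, named because they were past it, were RCN3 (−0.70 ± 0.17, SE) and RCN1 (−0.54 ± 0.22), calcium-binding proteins of the secretory pathway, the prolyl isomerases PPIB (−0.40 ± 0.16) and FKBP14 (−0.47 ± 0.21), which act on collagen, and the isomerase PDIA2 (−0.77 ± 0.34). None passed the adjusted test. Only RCN3 and RCN1 of the 5 were past an unadjusted p of 0.05 without CL-side summer replicate 2, at −0.78 and −0.56, and PPIB, FKBP14 and PDIA2 were at −0.34, −0.38 and −0.42. With the slide as a block RCN3 was at −0.81, RCN1 at −0.68, PPIB at −0.48, FKBP14 at −0.65 and PDIA2 at −0.72. In that fit all but PDIA2 were past 0.05 before adjustment and none after it. PDIA2 was at −0.34 in the authors' deposited log2 values. The stromal marker score was −1.41 to 0.21 in CL-side summer and 0.38 to 0.76 in CL-side autumn, and its part in these values was not tested. On the non-CL side 12 of 22 genes of the list were lower, while 49.9% of all probes were higher, so the list was near an even split. There 0 were past an unadjusted p of 0.05, beside 1.12% of all probes. The stromal score there was −0.22 to 0.11 in summer and −0.11 to 0.15 in autumn, and its part was likewise not tested.

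The best known chaperones of the response did not pass the test either. HSPA5 (BiP), the ER Hsp70 that senses unfolded proteins, read −0.17, 0.32 and 0.08 in CL-side summer, 0.43, 0.42 and −0.12 in CL-side autumn, −0.05, 0.32 and 0.39 in non-CL-side summer, and 0.20, −0.08 and 0.14 in non-CL-side autumn. Its groups overlapped, and it differed between seasons by −0.17 ± 0.20 (SE; 95% interval −0.62 to 0.29) on the CL side and 0.13 ± 0.20 (−0.32 to 0.58) on the non-CL side. With the slide as a block these became −0.32 and −0.019, and without CL-side summer replicate 2 the CL-side value was −0.29. HSP90B1 (GRP94), the ER Hsp90, differed by −0.11 ± 0.13 and −0.047 ± 0.13 on the CL and non-CL sides, and by −0.037 and 0.022 with the slide as a block. DNAJC3, a co-chaperone that inhibits PERK, differed by 0.18 ± 0.18 and 0.14 ± 0.18, and by 0.065 and 0.022 with the slide as a block. P4HB, the founding disulfide isomerase, differed by 0.099 ± 0.19 and −0.077 ± 0.19, and like PDIA4 and PDIA6 it was highest on CL-side summer replicate 2. Without that array its CL-side difference was −0.088, and with the slide as a block −0.052 on that side and −0.23 on the other. HYOU1 was not well above background on any array. In the list of ER-associated degradation, 1 of 8 genes, VCP (0.31, higher in summer), was past an unadjusted p of 0.05 on the CL side. Of all probes, 9.92% were past that level there. SEL1L and DERL1, which take part in retrotranslocation, differed by −0.012 ± 0.13 and −0.038 ± 0.12 on the CL side. In the list of translocation and N-glycosylation, 1 of 15 genes, SSR2 (−0.33, lower in summer), was past it on the CL side, beside the same 9.92%. A score of 9 cytosolic heat shock genes stayed between −0.19 and 0.11 on all 12 arrays, and its ranges overlapped between summer and autumn.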

How the data were processed

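The members and gene lists were chosen with earlier results of these data known. Per the labels' protocols, RNA was extracted with a column kit and 400 ng was amplified and labelled with Cy3; per the file headers, spots were read with Feature Extraction 9.5.1.1 (9.5 in the submitters' processing notes), whose processed intensity was deposited, background-subtracted and not scaled between arrays. The authors also deposited log2 values with scale unstated, used as an alternative, like normexp on the deposited mean and background intensities. Here log2 processed signals were centred on each array's 75th percentile and floored at −7.28. Control spots (536) were left out and 466 flagged values set to missing. Probes that cleared the scanner's background test on every array of at least 1 group were kept (12404 of 15208). The number of arrays limits precision. Groups were compared in R 4.3.3 by limma 3.58.1 (lmFit, eBayes, two-sided, 8 residual degrees of freedom, 4 over both sides), with calls at a Benjamini-Hochberg adjusted p of 0.05; the fit was tested on simulated data. Symbols came from the scanner files and RefSeq names (ARS-UCD2.0 table). Deviations of same-numbered horns of a season correlated at 0.14 to 0.50 in all 6 pairs, and those of same-numbered arrays of different seasons at 0.091 to 0.34 (12 pairs), so a number marks something shared, within a season and across seasons, that the labels do not name. Named were all members with a probe, set pathway genes and the 5 genes most correlated with each score. The sequence of 1 probe is not reported here.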

Additional observations from a re-analysis of the deposited data

How the results depend on the processing

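With 3 arrays a group, the furthest end of any interval between groups was 0.42 (DDIT3) to 0.89 (PDIA3) log2 units from 0 for 8 of the 9 genes and 1.38 for CANX. Over the 54 differences of the 9 genes, 1149 values under alternatives gave 0 past an adjusted p of 0.05 (smallest 0.409); 1036 kept their direction and 113 changed it, none of these larger than 0.45 in size. Among all probes the alternatives gave a call only on slide 1 alone, with 1 probe for season on the non-CL side, and on leaving out 1 array, which gave 0 to 7 probes for season on the CL side, 0 to 1 for side in summer, 0 to 6 for side in autumn and 0 to 1 for the interaction. The replicate block changed no call; it turned the ATF4 interaction of −0.0030 to 0.13 across the 4 groups and 0.088 within a season. The cause was not tested for any of these changes of direction. With the slide as a block the ATF4 interaction was 0.088, season on the CL side −0.19 (DDIT3) and −0.22 (ASNS), on the non-CL side −0.20 (ASNS) and −0.015 (PDIA6), and over both sides −0.20 (DDIT3), −0.099 (XBP1), −0.21 (ASNS) and −0.0046 (PDIA6). On slide 1 alone, with fewer arrays, the interaction was 0.088 (ATF4), −0.26 (XBP1), 0.33 (ASNS) and −0.12 (PDIA3). There season on the CL side was −0.085 (DDIT3), −0.23 (XBP1) and −0.043 (ASNS), season on the non-CL side 0.032 (XBP1), −0.38 (ASNS), −0.011 (PDIA4) and −0.0097 (PDIA6), and side in autumn 0.45 (XBP1), −0.041 (ASNS), 0.099 (PDIA3) and −0.096 (PDIA4). With normexp the interaction was 0.0051 (ATF4), −0.0050 (DDIT3) and −0.0067 (PDIA4), season on the non-CL side 0.010 (DDIT3), side in autumn 0.032 (DDIT3) and season on the CL side −0.010 (ASNS). With quantile normalization DDIT3 was 0.0019 for season on the non-CL side, the interaction 0.00016 (ASNS) and −0.050 (PDIA6), and CALR −0.11 for side in summer. Over all probes of a gene the PDIA4 interaction was −0.081 and PDIA6 −0.017 for side in autumn. With flagged spots kept, chosen after seeing the data, the ATF4 interaction was 0.030. Leaving out 1 array at a time turned the sign within these ranges. For season on the CL side they were −0.11 to 0.10 (DDIT3), −0.018 to 0.37 (XBP1), −0.16 to 0.15 (ASNS), −0.39 to 0.079 (PDIA3), −0.036 to 0.32 (PDIA4) and −0.069 to 0.25 (PDIA6). For season on the non-CL side they were −0.11 to 0.15 (DDIT3) and −0.12 to 0.24 (ASNS), and over both sides −0.054 to 0.067 (DDIT3), −0.049 to 0.16 (XBP1) and −0.084 to 0.14 (ASNS). For side in summer they were −0.12 to 0.081 (ATF4), −0.089 to 0.10 (DDIT3), −0.19 to 0.24 (PDIA3), −0.076 to 0.28 (PDIA4), −0.065 to 0.26 (PDIA6) and −0.069 to 0.20 (CALR). For side in autumn they were −0.060 to 0.029 (ATF4), −0.12 to 0.14 (DDIT3), −0.24 to 0.084 (XBP1), −0.33 to 0.15 (PDIA3) and −0.13 to 0.64 (CANX). For the interaction they were −0.10 to 0.097 (ATF4), −0.13 to 0.13 (DDIT3), −0.22 to 0.14 (ASNS), −0.17 to 0.31 (PDIA3), −0.19 to 0.17 (PDIA4), −0.19 to 0.14 (PDIA6) and −0.19 to 0.077 (CALR).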

Other observations

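PDIA4 and PDIA6 each had a second, far dimmer probe that was also well above background on all 12 arrays by the scanner's criterion. Mean levels were −5.73 against −0.69 for the PDIA4 probe in use and −5.90 against 3.96 for that of PDIA6, with the floor at −7.28. The second PDIA4 probe differed between seasons by −0.056 ± 0.54 (SE) on the CL side and 0.14 ± 0.54 on the non-CL side. The second PDIA6 probe differed by 0.39 ± 0.58 and 0.17 ± 0.58. The differences of the brighter probes lay within 1 SE of these, but with SEs this wide the second probes are a weak check. No probe of either gene passed the adjusted test (limma).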
